A study of Bos taurus with 20 samples.

Results

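Endometrium, the lining of the uterus, was compared between the luteal days 10 and 14 of the bovine estrous cycle, pooled as 1 group of 8 animals, and day 18, with 4 animals. The 12 libraries were those labelled with these days, out of 20 libraries of the series, which also covers days 0 (estrus) and 5. Every animal was a virgin Holstein heifer, sexually mature, not lactating, at least 7 months old and at least 340 kg. All of them had received the same synchronization, namely a GnRH analog (100 µg), an intravaginal progesterone device (1.38 g) and 2 doses of the prostaglandin F2α analog cloprostenol (500 µg each, the earlier one after 96 hours and the later one when the device came out at 120 hours). The day of each heifer's biopsy was drawn at random, and its poly(A) RNA was sequenced as 1 library. The p-values below measure the spread between animals. Those from the fits over all IDs also use the spread within days 0 and 5, whose animals were not compared. By its title, the study asks how endometrial secretion recurs over the cycle.

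In cattle, the corpus luteum forms after ovulation and secretes progesterone, under which the endometrial glands release the secretions that would feed an embryo. When no embryo signals its presence, the endometrium gains oxytocin receptors late in the cycle and releases prostaglandin F2α in pulses. These pulses make the corpus luteum regress, progesterone drops, and estrogen from the growing follicle leads into the next estrus. Days 10 and 14 lie in the luteal phase, and day 18 lies near the usual time of regression. Whether the corpus luteum of each day 18 animal had regressed at the biopsy, and its progesterone level, were not analysed here. Each library held counts for 27607 gene IDs, and the 12 totals ranged from 21234000 to 24589873 counts. The table of cattle gene names at hand held none of these IDs, so hormone receptor genes and markers of epithelium, stroma or other cells could not be looked up. The results are therefore given over groups of IDs, and 4 IDs are printed. In a biopsy, fewer cells of a type and less RNA per cell cannot be told apart.

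The 12 libraries did not divide by day. Day 18 replicates 2 and 4 were most like day 14, with their best correlations across IDs, on a log2 scale of counts scaled to library size (CPM), at r = 0.977 with day 14 replicate 1 and r = 0.978 with day 14 replicate 3. Day 18 replicate 1 was closer to estrus. Its median correlation was 0.945 with the day 0 libraries, 0.905 with the other day 18 libraries and 0.893 with the luteal libraries, and its best match was day 0 replicate 2. Day 18 replicate 3 had its best match in day 10 replicate 3, at r = 0.975, while its median was 0.881 with the luteal and 0.869 with the other day 18 libraries. Day 10 replicates 1 and 3 also lay apart from the luteal group, with medians of 0.896 and 0.880 against 0.940 to 0.962 in its other 6 libraries. Since IDs within a library vary together, these correlations are descriptions only. The median SD of log2 CPM over IDs was 0.550 among the day 18 libraries, 0.460 among those of day 10 and 0.300 among those of day 14.

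Set against the range of luteal libraries, day 18 replicate 1 was the farthest outside it, and day 18 replicates 2 and 4 were no farther out than many luteal libraries. To put all libraries on the same footing, each was compared with sets of 7 luteal libraries, and the IDs above the highest or below the lowest of the 7 were counted. Day 18 replicate 1 lay beyond all 7 for 49.6% of the 16947 IDs tested. The share was 21.2% in day 18 replicate 2, 35.1% in replicate 3 and 20.3% in replicate 4. Among luteal libraries it was 40.8% in day 10 replicate 1, 22.4% in replicate 2, 39.2% in replicate 3 and 16.8% in replicate 4. On day 14 it ranged from 9.28% in replicate 3 to 34.2% in replicate 4. Both groups thus overlapped in this measure, and only day 18 replicate 1 exceeded every luteal library.

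**Figure D1:**
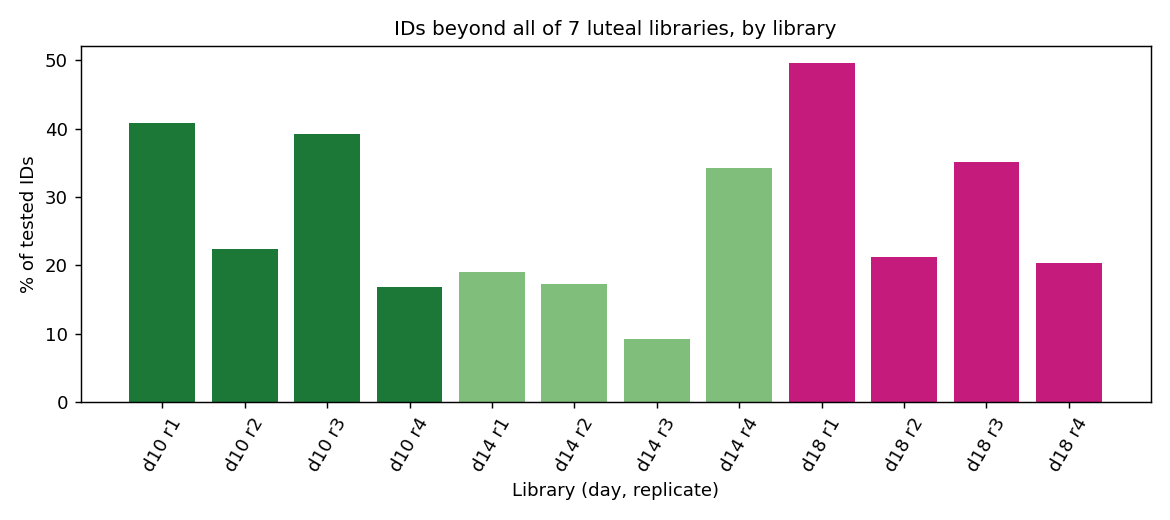
Share of the 16947 tested IDs (vertical axis, %) whose level in a library lay above the highest or below the lowest of 7 luteal libraries, for each library of days 10 (dark green), 14 (light green) and 18 (pink). For luteal libraries the 7 are the others of the group, and for day 18 libraries the bar is the mean over the 8 sets of 7. Day 18 replicate 1 stands highest at 49.6%, while day 18 replicates 2 and 4, at 21.2% and 20.3%, stand among the luteal libraries.

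No ID passed the test between the pooled luteal group and day 18. The edgeR quasi-likelihood test called 0 of 16947 IDs (0%) at a Benjamini-Hochberg adjusted p under 0.05, and the lowest adjusted p was 0.0647. Fitted on only the 12 libraries compared, the lowest edgeR adjusted p was 0.792. In the fit of all 20 libraries, 1639 IDs (9.67%) had an unadjusted p under 0.05. Of these, 1005 (5.93%) had the higher mean on day 18 and 634 (3.74%) the lower. Their fitted difference reached 4-fold in 89 of the higher and 84 of the lower IDs, and 2-fold in 305 and 280. Median log2 fold changes were 0.65 for the higher and −0.91 for the lower IDs, against −0.0021 over all tested IDs. The 3 lower IDs with no counts in a group were entered in these figures at a limit of 3 counts over that group. Since the 1639 IDs were chosen by p on the same values, their fold counts and medians are descriptions. With each library scaled by its total alone, 576 IDs at this unadjusted level were higher and 799 lower (8.11% together). The balance of directions thus turned from 61.3% to 41.9% higher. DESeq2, run as an alternative, called 84 IDs (0.496%), 53 higher and 31 lower on day 18. With limma voom and quality weights the count was 0, with 540 IDs (3.19%) at an unadjusted p under 0.05. In 71 of the 84 IDs called by DESeq2, day 18 replicate 1 lay beyond all 8 luteal libraries, as it did in 47.1% of all tested IDs. The groups did not overlap in 14 of the 84, against 0.354% of all tested IDs, and both counts are descriptions because the 84 were chosen on the same values.

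The precision differed with the level of an ID. The median SE of the log2 fold change was 0.577 for IDs under 1 CPM on average, 0.429 from 1 to 5 CPM, 0.247 from 5 to 50 CPM and 0.193 above 50 CPM. The share at an unadjusted edgeR p under 0.05 was 8.06%, 8.35%, 9.60% and 11.2% in the same order.

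**Figure D2:**
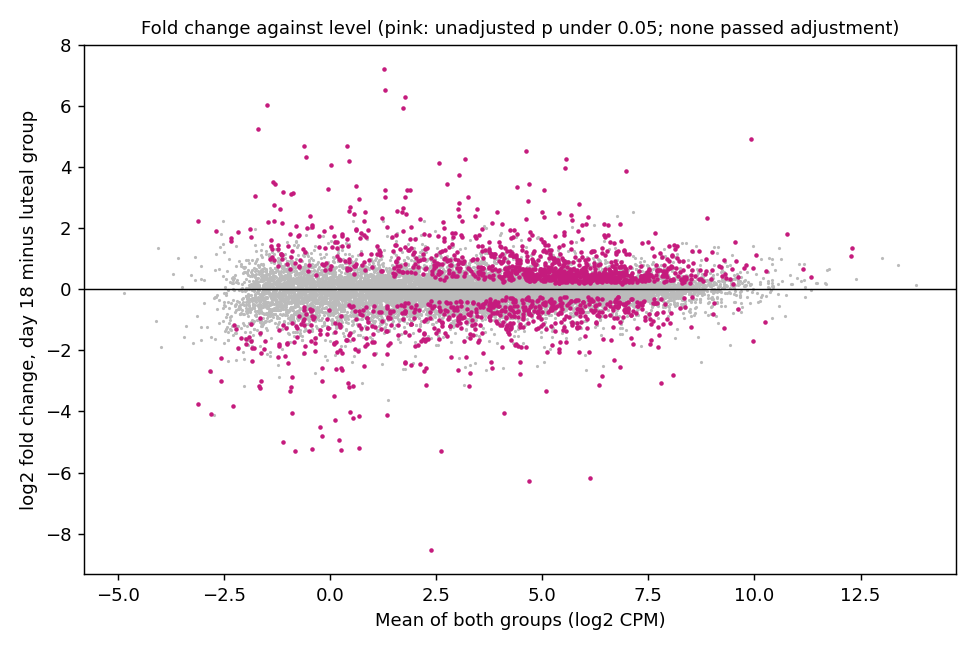
Fitted log2 fold change (day 18 minus luteal group, vertical axis) against the mean level of both groups (log2 CPM, horizontal axis) for 16943 IDs. Pink points mark the unadjusted p under 0.05; the 4 IDs with a group at 0 are not drawn. The pink points lie on both sides of 0, with 1005 of the 1639 IDs at this level above it, and no point passed adjustment.

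These differences were carried unevenly by the 4 day 18 animals. Among the 1005 IDs with the higher mean on day 18, day 18 replicate 1 was the highest of the 4 libraries in 88.4%, against 32.4% of all tested IDs. Those IDs were chosen on the same values, so this share is a description. On average over the 1005 IDs, day 18 replicate 1 stood 1.72 above the luteal mean on the log2 scale, and replicates 2, 3 and 4 stood 0.357, 0.332 and 0.252 above it. Among the 634 lower IDs the average was −1.44 in day 18 replicate 1 and −1.40 in replicate 3, against −0.666 and −0.673 in replicates 2 and 4. Day 10 replicate 3 stood at −0.758 on these lower IDs, below day 18 replicates 2 and 4, whereas the other 7 luteal libraries ranged from −0.133 to 0.373. All 4 day 18 libraries lay above the luteal median in 45.4% of the higher IDs and below it in 83.6% of the lower IDs. Over all tested IDs these shares were 6.75% and 8.08%. The higher and the lower IDs were chosen on the same values, so all averages and shares over them are descriptions.

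Without day 18 replicate 1, 577 IDs had an unadjusted edgeR p under 0.05, or 3.36% of those tested, of which 281 were higher and 296 lower on day 18. Without day 18 replicate 2 there were 2607 (15.2%). Without day 18 replicate 1 no ID passed adjustment and the lowest edgeR adjusted p was 0.911. After adjustment, 13 of 17168 IDs passed without day 18 replicate 3 and 3 of 17204 without day 18 replicate 4, all higher on day 18. Without day 10 replicate 3, 1 of 16905 passed, lower on day 18. Leaving out any 1 of the other 9 libraries gave 0. Without the 3 libraries of days 10 and 18 that correlated least with the luteal group apart from day 18 replicate 1 (day 10 replicates 1 and 3 and day 18 replicate 3), 1 ID passed, ENSBTAG00000015685.

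**Figure D3:**
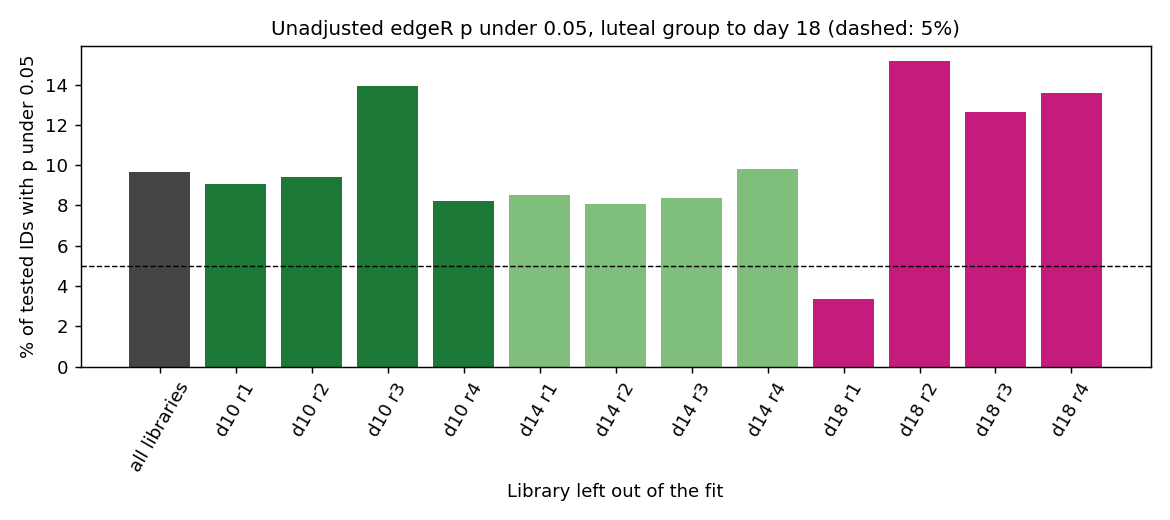
Share of tested IDs with an unadjusted edgeR p under 0.05 between the luteal group and day 18 (vertical axis, %), with all libraries (grey) and with each library of day 10 (dark green), day 14 (light green) or day 18 (pink) left out. The dashed line marks 5%. The share is 9.67% with all libraries and 3.36% without day 18 replicate 1, the lowest bar.

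Days 10 and 14 taken singly gave the same count of 0 against day 18. From day 10 to day 18, 1383 IDs (8.16%) had an unadjusted edgeR p under 0.05, 674 higher and 709 lower on day 18, and the lowest adjusted p was 0.142. From day 14 to day 18 there were 1703 (10.0%), 1177 higher and 526 lower, with a lowest adjusted p of 0.453. Of the 1383 IDs, 118 higher and 143 lower ones differed from day 10 by at least 4-fold. Of the 1703 IDs, 216 higher and 54 lower ones differed from day 14 by as much. The IDs were chosen by p on the same values, so these fold counts are descriptions. Both comparisons use the same day 18 libraries, so they are not independent of each other. Without day 10 replicate 3, 33 IDs passed adjustment from day 10 to day 18, where 16947 were tested with all libraries. From day 14 to day 18 the count stayed 0 without any 1 of the 8 libraries of these days.

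Few IDs separated the 8 luteal libraries from the 4 day 18 libraries. All 4 day 18 libraries lay above all 8 luteal libraries in 32 IDs (0.189%) and below all 8 in 28 IDs (0.165%), together 60 IDs (0.354%). With 4 of the 12 libraries labelled at random, a share of 0.00404 of IDs would on average separate in this way, both directions together. The 60 IDs did not exceed this share, so their number alone does not set day 18 apart. Since IDs vary together, this is a description and not a test. A single library beyond the luteal range is a weaker condition than all 4. In 5666 IDs (33.4%) a single day 18 library lay above that range, and in 5008 (29.6%) a single one lay below it. Random labels would also give many such IDs. Their share was not computed, so these counts are descriptions. Day 18 replicate 1 was that library in 2557 and 2132 of them, and day 18 replicate 3 in 1576 and 1609. Replicates 2 and 4 accounted for 773 and 760 of those above and 640 and 627 of those below. Of the IDs without overlap, 25 higher and 20 lower ones averaged at least 5 CPM over the 12 libraries. The 25 higher IDs had log2 fold changes from 0.17 to 2.01, with a median of 0.37, and 3 of them reached 2-fold. Of the 20 lower IDs, 19 ranged from −0.24 to −1.54 and 4 of these reached 2-fold. The remaining lower ID had 2 counts over the 4 day 18 libraries and 1946 over the 8 luteal libraries, 454 times as many in the luteal group per scaled count (exact 95% interval for counting error 126 to 3754), but its luteal counts ran from 1 to 843. Leaving out day 10 replicate 2 gave 95 IDs without overlap instead of 60, day 10 replicate 3 gave 181 and day 14 replicate 4 gave 96. Without day 18 replicate 1, 2, 3 or 4 it was 94, 235, 250 or 191. Fewer libraries can only leave or add IDs in this count.

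The printed IDs are the 2 higher and 2 lower ones of lowest unadjusted p among those without overlap and with at least 5 CPM. None of them passed adjustment. No overlap was a condition of their choice, so the separation and fold changes given for them are descriptions. ENSBTAG00000015685 was at 1.42 CPM in the lowest, 2.32 CPM at the median and 3.861 CPM in the highest of the 8 luteal libraries. On day 18 it was at 20.6 CPM in replicate 1, 6.88 CPM in replicate 2, 3.927 CPM in replicate 3 and 9.67 CPM in replicate 4. Replicate 1 was far above the others, and replicate 3, with 76 counts, lay above day 10 replicate 3, the highest luteal library with 78 counts, only through the scaling factors. With total counts alone these 2 libraries were at 3.41 and 3.64 CPM, so the groups overlapped. The mean of 5.12 CPM over the 12 libraries, by which this ID met the level of 5 CPM, was reached only through day 18, since its luteal mean was 2.55 CPM. The log2 fold change was 2.01 (SE 0.34, edgeR adjusted p = 0.0647). Against day 10 alone it was 1.82 (SE 0.42), and against day 14 alone 2.22 (SE 0.42), with edgeR adjusted p of 0.376 and 0.453. Over 27 alternatives the adjusted p of ENSBTAG00000015685 ranged from 5.84e-05 (DESeq2) to 0.999, and it passed without day 18 replicate 3 (edgeR adjusted p = 0.0170). Without 1 library its log2 fold change ranged from 1.44 to 2.27. On the days not compared, it averaged 56.8 ± 5.66 CPM at day 0 and 23.1 ± 9.19 CPM at day 5 (SD, 4 libraries each), and every day 18 library lay below every day 0 library.

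ENSBTAG00000001449 differed by less and varied less. It was at 59.7 CPM in the lowest, 62.2 CPM at the median and 72.8 CPM in the highest luteal library. On day 18 the levels were 113 CPM in replicate 1, 79.9 CPM in replicate 2, 89.1 CPM in replicate 3 and 73.03 CPM in replicate 4. Replicate 1 was again the highest, and replicate 4 was just above day 10 replicate 3 but below it with RLE factors (72.9 against 74.8 CPM), so that the groups then overlapped. The log2 fold change of ENSBTAG00000001449 was 0.48 (SE 0.11, edgeR adjusted p = 0.299), and it ranged from 0.27 to 0.56 over 27 alternatives, with adjusted p from 0.0130 (DESeq2) to 1. At day 0 it averaged 79.95 ± 12.1 CPM, within the day 18 range, and at day 5 70.6 ± 3.93 CPM (SD, 4 libraries each).

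Of the lower IDs, ENSBTAG00000012024 had the lowest p. Its luteal levels ran from 86.3 CPM over a median of 103 CPM to 126 CPM. On day 18 it was at 28.2 CPM in replicate 1, 51.3 CPM in replicate 2, 58.1 CPM in replicate 3 and 59.8 CPM in replicate 4. Replicate 1 was the lowest, and the other 3 lay close together, well below the luteal group. The log2 fold change of ENSBTAG00000012024 was −1.08 (SE 0.23, edgeR adjusted p = 0.214). Without day 18 replicate 1 or any other single library it lay between −1.19 and −0.87, and over 27 alternatives the adjusted p ran from 0.00442 (DESeq2) to 1. ENSBTAG00000012024 averaged 112 ± 17.0 CPM at day 10, 97.5 ± 7.99 CPM at day 14 and 49.4 ± 14.6 CPM at day 18 (SD, 4 libraries per day). Outside the comparison it averaged 23.2 ± 5.97 CPM at day 0, with 3 of the 4 libraries below every day 18 library, and 104 ± 33.0 CPM at day 5.

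ENSBTAG00000021830 had a wide luteal range, from 56.6 CPM over a median of 72.96 CPM to 210 CPM in day 10 replicate 1. On day 18 it was at 22.7 CPM in replicate 1, 38.2 CPM in replicate 2, 32.97 CPM in replicate 3 and 38.5 CPM in replicate 4. All 4 day 18 libraries were below the lowest luteal library, and replicate 1 was once more the farthest. The log2 fold change of ENSBTAG00000021830 was −1.54 (SE 0.45, edgeR adjusted p = 0.364), with −1.91 (SE 0.47) against day 10 and −1.04 (SE 0.46) against day 14, neither of which passed adjustment (edgeR adjusted p of 0.445 and 0.484). It averaged 124 ± 63.7 CPM at day 10, 68.2 ± 7.55 CPM at day 14, 15.0 ± 4.20 CPM at day 0 and 187 ± 138 CPM at day 5 (SD, 4 libraries per day). In all 4 printed IDs, day 18 replicate 1 was the day 18 library farthest from the luteal group.

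**Figure D4:**
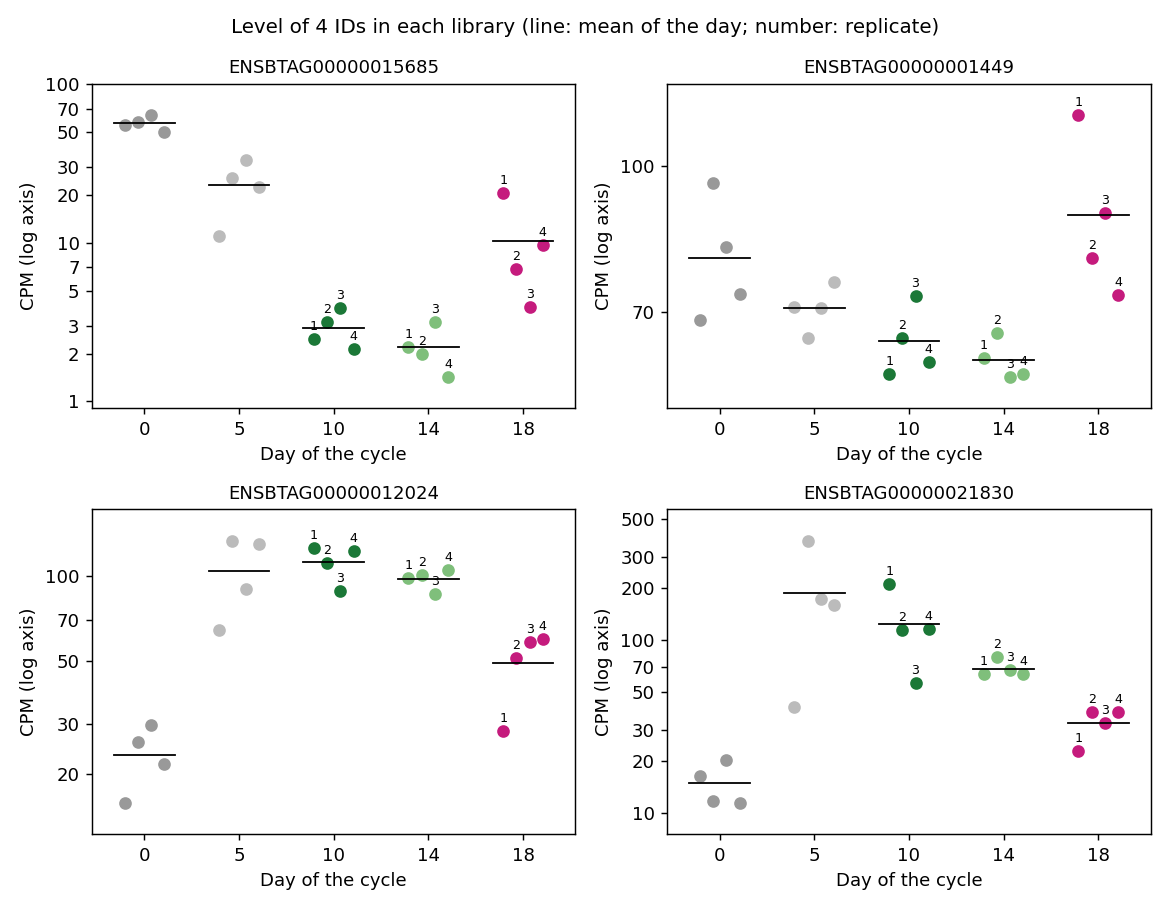
Level of the 4 printed IDs in each of the 20 libraries (CPM, log axis) by day of the cycle. Each point is 1 library, the numbers on days 10, 14 and 18 are replicates, and the line is the mean of the day. With the TMM factors used here, the 4 day 18 points of each panel lie outside the 8 points of days 10 and 14, but they overlap for ENSBTAG00000015685 with total counts alone and for ENSBTAG00000001449 with RLE factors. Replicate 1 is the farthest day 18 point in each panel; for ENSBTAG00000015685 the day 0 mean of 56.8 CPM is above every day 18 point.

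A library that takes no part in choosing the IDs gives a check on the direction. Each of the 12 libraries was left out in turn, the 200 IDs of lowest p were chosen from the rest, and the left-out library was placed on the line between the mean of the remaining luteal libraries (position 0) and that of the remaining day 18 libraries (position 1). Day 18 replicate 1 came out at 0.923. Day 18 replicates 2, 3 and 4 came out at 0.318, 0.0794 and 0.158, nearer to the luteal mean. Each position rests on its own 200 IDs and its own line, and for replicates 2, 3 and 4 the day 18 mean includes replicate 1. Of the 200 IDs, 103 were higher on day 18 when replicate 1 was left out. When replicates 2, 3 and 4 were left out, 153, 182 and 172 were higher. Day 10 replicate 3 came out at 1.22, beyond the day 18 mean. The other 7 luteal libraries lay between −0.168 (day 10 replicate 1) and 0.342 (day 14 replicate 1). Left-out libraries of both groups thus overlapped, and on these 200 IDs day 18 replicates 2, 3 and 4 lay within the range of those 7 luteal libraries. With 50 IDs, day 18 replicate 2 was at 0.498, above the highest of the 7 at 0.266, and with 1000 IDs replicate 3 was at −0.118, below the lowest of the 7 at −0.0910. With 50 or 1000 IDs, or with IDs of at least 5 CPM only, day 18 replicate 1 lay between 0.856 and 1.11 and day 10 replicate 3 between 1.14 and 1.36.

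On the 200 IDs of lowest p with all 12 libraries, the days not compared could be placed on the same line. The 4 day 0 libraries lay at 1.27, 1.60, 1.56 and 1.37 (replicates 1 to 4), all past the day 18 mean. On day 5, replicate 1 was at 1.04 and replicates 2, 3 and 4 at 0.309, 0.513 and 0.379. Of these 200 IDs, 152 were higher on day 18 and 48 lower. In mean log2 CPM, the 152 stood above the luteal mean by 1.20 ± 1.25 at day 18, 1.94 ± 0.321 at day 0 and 0.940 ± 0.386 at day 5 (SD over 4 libraries each). The 48 stood at −1.76 ± 0.431 at day 18, −1.74 ± 0.0446 at day 0 and −0.490 ± 0.630 at day 5 relative to it. Within the luteal group the 48 stood at 0.0951 ± 1.06 at day 10 and −0.0951 ± 0.293 at day 14, so the day 10 libraries spread widely on them. All these positions and means are relative to the same luteal libraries that helped to choose the IDs, so those of day 0 and day 5 are not independent of that choice. The day 18 means rest on the same day 18 values by which the 200 IDs were chosen, so they are descriptions only.

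**Figure D5:**
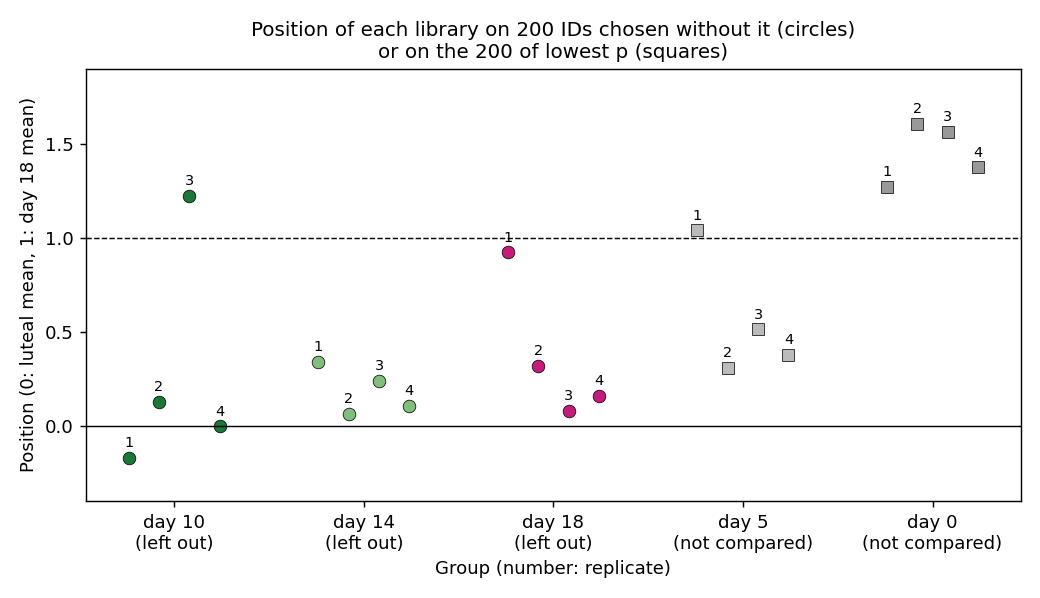
Position of each library between the luteal mean (0, solid line) and the day 18 mean (1, dashed line). Circles are libraries of days 10, 14 and 18, each placed on 200 IDs chosen without it, squares are libraries of days 5 and 0, placed on the 200 IDs of lowest p, and the numbers are replicates. Each circle has its own IDs and its own line, and for day 18 replicates 2, 3 and 4 the day 18 mean includes replicate 1. Day 18 replicate 1 (0.923) lies near the dashed line and day 10 replicate 3 (1.22) above it, while day 18 replicates 2, 3 and 4 (0.318, 0.0794 and 0.158) lie among the luteal libraries.

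The concentration of RNA in a few transcripts did not separate the groups. In the luteal group, 13.1% ± 2.93 of a library's counts fell on its 50 most abundant IDs (SD, n = 8; lowest 10.97%, median 11.8%, highest 18.9%). On day 18 they held 19.5% in replicate 1 (95% Wilson interval 19.46 to 19.49), 11.8% in replicate 2 (11.74 to 11.77), 22.7% in replicate 3 (22.67 to 22.71) and 10.97% in replicate 4 (10.96 to 10.98), intervals that cover counting error only. Replicates 1 and 3 were above every luteal library, replicate 2 was below the luteal median, and replicate 4 was level with the lowest luteal library within counting error. The day 18 mean was 3.14 percentage points higher (exact permutation test, two-sided, p = 0.255), with 0.255 after Benjamini-Hochberg adjustment over the 2 single-value tests. The difference was 2.05 percentage points without day 18 replicate 1, 0.983 without replicate 3 and 4.89 without replicate 4. Of the pooled days, day 10 averaged 14.7% ± 3.53 and day 14 11.4% ± 0.514 (SD over the libraries of the day).

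IDs at 1 CPM or more numbered 14687.5 ± 137 in the luteal group (SD, n = 8; lowest 14501, median 14703, highest 14856). On day 18 there were 14397 in replicate 1, 14669 in replicate 2, 14349 in replicate 3 and 14652 in replicate 4. Replicates 1 and 3 were below every luteal library, and replicates 2 and 4 were within the luteal range. The means differed by −170.75 IDs (two-sided exact permutation p = 0.0889, adjusted p = 0.178). The smallest p that 8 against 4 libraries allow in this test is 0.00404. No ID went from 0 counts in all 8 luteal libraries to 10 or more in each day 18 library, and none did the reverse. At least 10 counts in 1 or more day 18 libraries with 0 in the luteal group were seen for 4 IDs, in day 18 replicate 1 alone for 3 of them and in replicate 3 alone for 1.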

How the data were processed

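The authors deposited raw counts per gene ID in 20 tables, each for a single library per the file headers. FastQC, STAR and edgeR appear in the submitters' processing notes without version or role. Per the labels' protocols, libraries were made with a stranded TruSeq kit from poly(A) RNA. For the genome build, annotation, counting program and strand setting, nothing was stated in those notes, the labels or the headers, so reads of near-identical, overlapping or antisense genes may not be separated. Of 27607 IDs, 5129 had no counts in the 12 libraries. Between libraries of a day, chi-square per degree of freedom was 27.3 to 563 over 18 pairs, so none agreed within sampling noise. Each library is labelled as a separate animal.

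From the deposited counts, filterByExpr kept 16947 IDs with enough counts. In R 4.3.3, edgeR 4.0.16 fitted all 20 libraries with TMM scaling, 4 means (day 0, day 5, the luteal group, day 18), shared dispersions (common biological coefficient of variation 0.459) and the robust quasi-likelihood test, adjusted by Benjamini-Hochberg over all tested IDs, with a threshold of 0.05. Single days against day 18 used 1 mean per day. log2 CPM used a prior count of 2, and an SE is the log2 fold change divided by the square root of F. For 1 value per library, the exact permutation test was two-sided and enumerated all divisions into 8 and 4 (Python 3.11.15, scipy 1.17.1). Figures used matplotlib 3.10.9. The edgeR procedure was tested on simulated data.

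The rule for printed IDs needed gene symbols, and 0 of the IDs matched the 37063 genes of the name table. By its form without names, at most 2 higher and 2 lower IDs are printed, taken from those with adjusted p under 0.05, no overlap and at least 5 CPM, or else those of lowest unadjusted p that met the other conditions. The gene lists and cell type markers need names and were not run. The groups, rules and tests were chosen with earlier results of these data known. Alternatives were RLE or total-count scaling, other count filters, DESeq2 1.42.0, limma 3.58.1 voom, a fit without the robust option, 1 mean per day, only the 12 libraries, a replicate block, a test against a 2-fold change and leaving out libraries.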

Additional observations from a re-analysis of the deposited data

Results flagged for a closer look

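Among 32 groups of values examined for a library far from the others, 2 had such a library, and chance flags about 1 in 20 groups. In the luteal group, ENSBTAG00000021830 was at 210 CPM in day 10 replicate 1, while the next highest library was at 115 CPM and the lowest at 56.6 CPM. Among the luteal libraries placed between both means with each left out, day 10 replicate 3 was at 1.22, while the next highest was at 0.342 and the lowest at −0.168. Day 10 replicate 3 is also the library that correlated at 0.975 with day 18 replicate 3.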

How the results depend on the processing

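With edgeR the count of IDs past adjustment was 0 under RLE or total-count scaling and both other count filters. It was also 0 in a fit that was not robust, with 1 mean per day, only the 12 libraries compared or a 2-fold threshold. With only the 12 libraries compared, 997 IDs (6.06%) had an unadjusted p under 0.05 and the lowest edgeR adjusted p was 0.792. DESeq2 called 84. Leaving out 1 library gave 0 to 13 for the pooled comparison, 0 to 33 from day 10 to day 18, 0 from day 14 to day 18 and 66 to 250 IDs without overlap. Leaving out day 10 replicates 1 and 3 and day 18 replicate 3 together gave 1. Leaving out day 10 replicates 1 and 3 together gave 1, with 2810 IDs (16.7%) at an unadjusted p under 0.05. Leaving out day 18 replicates 1 and 3 together gave 0, with 470 (2.69%) at that level. The cause of these shifts was not tested. With the replicate block the count was 0, with 813 higher and 828 lower IDs (9.68% together) at an unadjusted p under 0.05. Deviations of same-numbered libraries correlated above 0.1 in 6 of 12 pairs (−0.0357 to 0.766). No value for differently numbered libraries is set beside these, so the count is a description and does not single out the replicate numbers. Whether the replicate numbers mark something that the animals shared was not tested. The log2 fold changes of the 4 printed IDs kept their direction under all 27 alternatives each. No alternative brought the share of the 50 most abundant IDs (difference 0.983 to 4.89 percentage points) or the number of detected IDs (difference −244 to −115) to an exact permutation p under 0.05. The size of a change that 4 day 18 animals can show is limited by their spread.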
